A study of Mus musculus with 4 samples.

Results

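Mouse chromosome 15 carried 3858 of the 45855 regions at which H3K9ac was called different between HT22 cells grown at 70 µM and at 5 µM choline chloride. The members are all rows of the authors' list that lie on this chromosome. The other 18 autosomes together hold 41180 rows, and the X and Y chromosomes hold the rest. HT22 is an established cell line derived from mouse hippocampal neurons, and it was exposed to the supplemented (70 µM) or the control (5 µM) level for 48 h. The series has 2 H3K9ac ChIP libraries and 2 input libraries, so a choline level had at most 1 ChIP library, and the labels do not give the level of each library. The list names its comparison with 5 before 70. Condition 2 is therefore read as 70 µM and condition 1 as 5 µM, and each statement on the choline level rests on that reading. There are no replicates of a level and no p-values. Chromosome 15 was selected on its number of regions per Mb in this list, so its excess is given as a description, and intervals cover counting over regions only.

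H3K9ac is acetylation of lysine 9 of histone H3, a mark laid down by acetyltransferases such as Kat2a and Kat2b and found at active promoters and enhancers. Promoters carry it around the transcription start, and enhancers carry it in introns and between genes. Chromosome 15 of the mouse has long gene-poor tracts in its centromeric part, among them the cadherin genes Cdh9, Cdh10, Cdh12 and Cdh18. Its middle part holds Myc and the long noncoding RNA gene Pvt1, and its distal part holds crowded gene neighbourhoods with the Ly6, type II keratin and Hoxc clusters. In mouse tumours the Myc and Pvt1 locus is a known site of gene amplification and of retroviral insertion.

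A few regions show what the sequence of these rows looks like, printed 5′ to 3′ on the plus strand of the RefSeq GRCm38.p6 assembly, with CpG dinucleotides in capitals. The first 3 stand for the Myc and Pvt1 locus: the middle of the region at the Myc start, the strongest region inside Pvt1, and the strongest region of the 4 Mb around both genes, which lies in intergenic sequence. The next is the strongest region more than 10 kb from any annotated start, and the last is the strongest region called at 5 µM. Of the chromosome 15 regions, 16.8% held no CpG on the strand read, against 15.8% on the other autosomes.
Myc start, chr15:61986023-61986222: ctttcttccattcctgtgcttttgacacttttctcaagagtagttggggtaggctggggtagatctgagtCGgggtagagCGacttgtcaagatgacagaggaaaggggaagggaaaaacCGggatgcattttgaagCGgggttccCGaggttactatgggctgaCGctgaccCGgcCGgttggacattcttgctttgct
Pvt1 intron, chr15:62153775-62154006: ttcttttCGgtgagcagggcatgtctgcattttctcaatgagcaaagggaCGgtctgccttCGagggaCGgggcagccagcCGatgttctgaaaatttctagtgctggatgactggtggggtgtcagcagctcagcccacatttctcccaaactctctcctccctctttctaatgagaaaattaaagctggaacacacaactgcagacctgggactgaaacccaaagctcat
Downstream of Pvt1, chr15:62496337-62496463: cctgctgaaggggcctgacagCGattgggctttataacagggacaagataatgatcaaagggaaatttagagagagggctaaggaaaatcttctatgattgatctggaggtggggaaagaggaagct
Tbc1d22a intron, chr15:86319619-86319819: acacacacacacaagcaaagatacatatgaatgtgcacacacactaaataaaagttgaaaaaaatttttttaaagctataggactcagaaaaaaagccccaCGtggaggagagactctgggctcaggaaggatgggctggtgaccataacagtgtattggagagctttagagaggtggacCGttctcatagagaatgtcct
Trmt12 coding exon (5 µM), chr15:58873524-58873685: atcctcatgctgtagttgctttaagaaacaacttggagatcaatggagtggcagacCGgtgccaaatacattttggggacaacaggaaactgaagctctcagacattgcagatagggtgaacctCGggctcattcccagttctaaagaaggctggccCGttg

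The Myc region shown in part is 1101 bp wide, the widest region on chromosome 15, and held 57 CpG sites in all. The printed Myc stretch overlaps no annotated exon and holds no annotated start. The middle of the region lay 201 bp from the nearest annotated start. The regions in Pvt1, in Tbc1d22a and downstream of Pvt1 held 5, 2 and 1 CpG sites. The Tbc1d22a region lay for 40.8% of its length in sequence that RefSeq marks as repeats, and that share was 0% in the Trmt12 region.

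By density, chromosome 15 was second among the 19 autosomes and by distal regions it was first. It had 38.3 regions per Mb of assembled sequence, against 17.9 per Mb on the other autosomes, a ratio of 2.14 (exact 95% interval 2.07 to 2.21). Only chromosome 11 was denser among autosomes, at 38.6 regions per Mb, but chromosome 11 also has 13.8 coding genes per Mb, whereas chromosome 15 has 7.80, eleventh among the autosomes. Starts of all transcripts listed for protein-coding genes were used, coding or not, and are called coding starts below. A region was put at a start site when it came within 1 kb of such a start, and was called distal otherwise. Distal regions numbered 3032 on chromosome 15, or 30.1 per Mb, against 12.6 per Mb on the other autosomes, a ratio of 2.39 (2.30 to 2.48). Start-site regions numbered 826, or 1.05 per coding gene, against 0.610 per coding gene on the other autosomes, a ratio of 1.72 (1.61 to 1.85). Start-site regions made up 21.4% of the chromosome 15 regions and 29.7% of those on other autosomes.

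**Figure D1:**
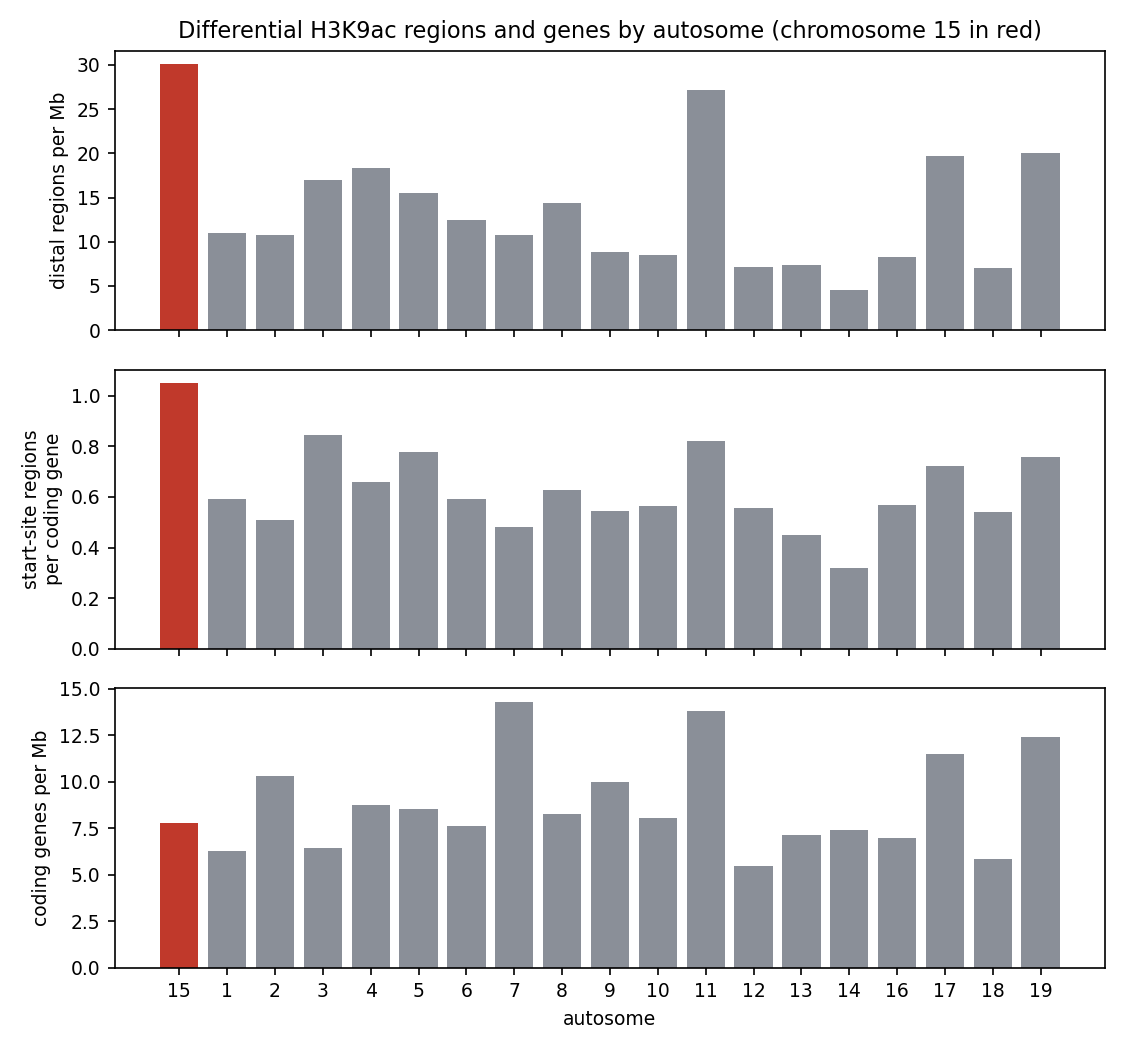
Each bar is 1 autosome, with chromosome 15 at the left in red; the panels give distal regions per Mb of assembled sequence, start-site regions per protein-coding gene, and protein-coding genes per Mb. Chromosome 15 has the highest bar in the upper 2 panels (30.1 distal regions per Mb, 1.05 start-site regions per gene) and an ordinary one in the lowest (7.80 genes per Mb).

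Coding genes with a start-site region were likewise more frequent on chromosome 15. Of its 785 protein-coding genes, 440 had a region within 1 kb of a start (56.1%, exact 95% interval 52.5 to 59.6), against 40.0% of the genes on other autosomes and 39.5% of all protein-coding genes. The next highest shares among autosomes were 49.8% on chromosome 11 and 48.1% on chromosome 3, and the lowest was 24.5% on chromosome 14. Because 56.1% of the chromosome's genes have such a region, counts in gene groups below are to be read against that share. The start-site score named for a gene below is that of its strongest such region unless stated. That region can lie at a start inside the gene, far from its 5′ end. In Ptk2 (minus strand, 73205102 to 73423280) it lay at 73208677 to 73208819.

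Along the chromosome the excess was broad. In bins of 1 Mb, the median chromosome 15 bin held 25 regions, against 10 in the bins of other autosomes. The lower quartile was 9 regions on chromosome 15 and 3 on the others, and the upper quartile was 60 and 24. The highest bin on chromosome 15 held 173 regions, and the highest elsewhere held 183. Of the 101 bins, 71 were above the median bin of the other autosomes (70.3%), where 48.6% of the other autosomes' own bins are. Empty bins were rare: 1 of the 101 bins had no region at all, against 5.71% of the bins elsewhere. Leaving out the 10 bins with most regions on each autosome gave a ratio of 2.11 (2.03 to 2.20), close to 2.14 with all bins. Those 10 bins held 32.0% of the regions on chromosome 15, against 29.6% over the other autosomes.

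The typical bin differed mainly in distal regions. The median bin held 21 distal regions on chromosome 15 and 7 on the other autosomes, and 78 of 101 bins were above the other autosomes' median. For start-site regions the medians were 3 and 2, and 53 of 101 bins were above. The 10% of bins with most start-site regions began at 26 on chromosome 15, against 13.1 elsewhere.

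**Figure D2:**
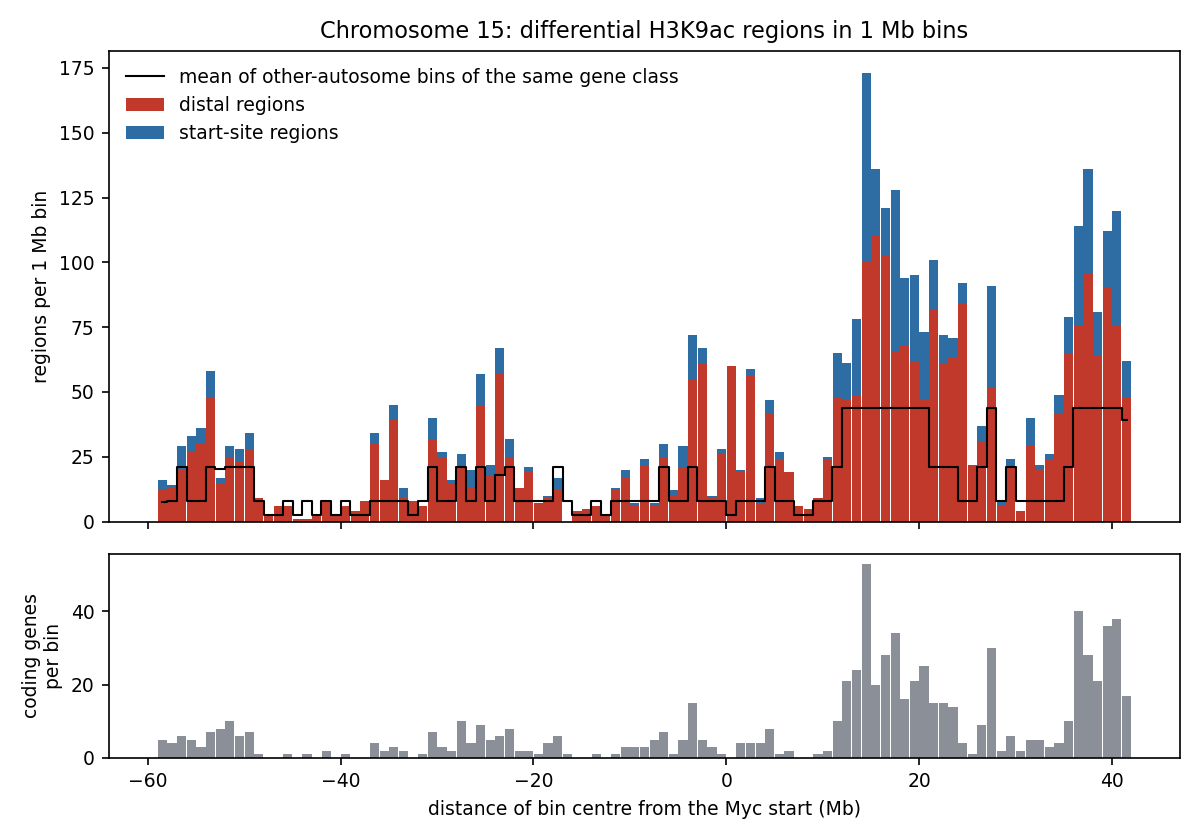
Bars give the distal (red) and start-site (blue) regions in each 1 Mb bin of chromosome 15, placed by the distance of the bin from the Myc start, and the black line gives the mean of other-autosome bins of the same gene class; the lower panel gives coding genes per bin. Bars exceed the line in 85 of the 101 bins, are tallest in the crowded distal part, and are lowest in the gene-poor tracts on the left.

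Gene-poor and gene-rich stretches were both above the other autosomes. Bins were classed by the coding genes that start in them: gene-free (0), gene-poor (1 to 5), intermediate (6 to 15) and gene-rich (16 or more). The 16 gene-rich bins of chromosome 15 held 105 regions per Mb, against 43.9 per Mb in 401 such bins elsewhere, a ratio of 2.40 (2.28 to 2.52). All 16 lay above the other autosomes' median of 37 regions. In the 22 intermediate bins the levels were 47.3 and 21.2 regions per Mb, a ratio of 2.23 (2.09 to 2.38). In the 49 gene-poor bins they were 21.1 and 8.12 per Mb, a ratio of 2.60 (2.43 to 2.77). The 14 gene-free bins had 8.43 regions per Mb, against 2.44 per Mb elsewhere, a ratio of 3.46 (2.82 to 4.22), but the bin that holds Pvt1 supplied 60 of their 118 regions. Without it the other 13 gene-free bins had 4.46 regions per Mb and a ratio of 1.83 (1.38 to 2.40). Chromosome 15 ranked first of the 19 autosomes in the gene-poor, intermediate and gene-rich classes, and in the gene-free class only with the Pvt1 bin, since 4.46 per Mb is below the 5.44 per Mb of chromosome 3. The next were chromosome 3 in the gene-free (5.44 per Mb), gene-poor (13.2) and gene-rich classes (76.2) and chromosome 11 in the intermediate class (30.5).

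**Figure D3:**
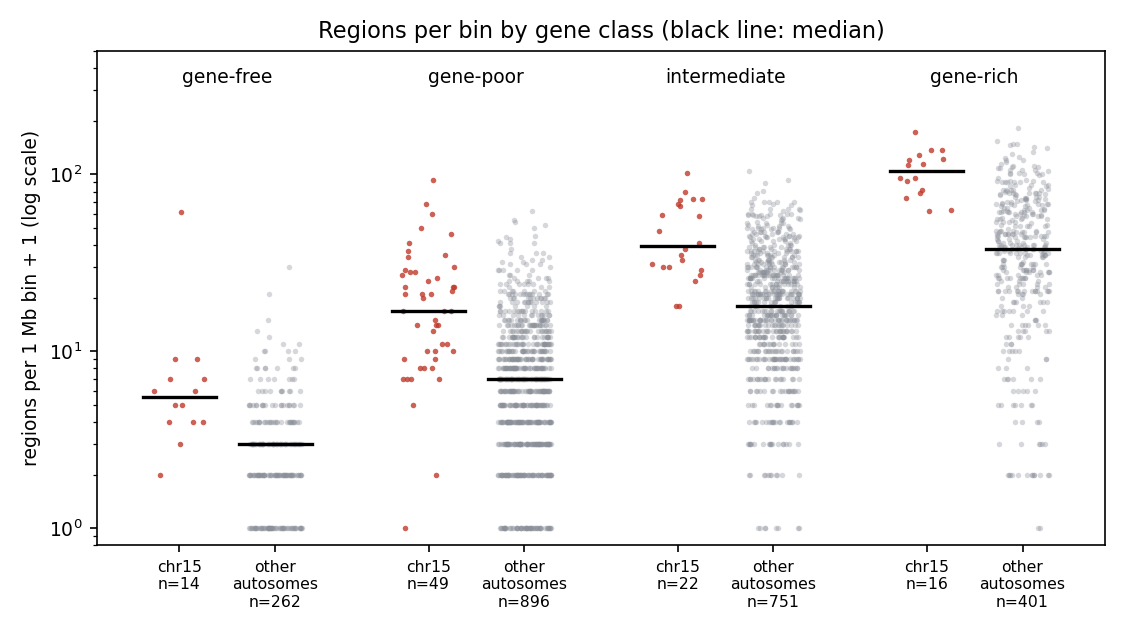
Each point is a 1 Mb bin, with its regions plus 1 on a log axis, by gene class, chromosome 15 (red) left of the other autosomes (grey); black lines are medians. The chromosome 15 median lies above the other in each class, for example 104 against 37 regions in gene-rich bins, and the isolated gene-free point of chromosome 15 is the 60-region bin with Pvt1.

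In the 3 classes with genes the excess was larger for distal regions than for start-site regions. In gene-rich bins the ratio was 2.66 (2.50 to 2.83) for distal and 1.97 (1.80 to 2.15) for start-site regions. In gene-poor bins it was 2.84 (2.64 to 3.04) for distal and 1.57 (1.29 to 1.90) for start-site regions. Intermediate bins gave 2.49 (2.32 to 2.67) for distal and 1.53 (1.31 to 1.77) for start-site regions. Chromosomes 11 and 3, each against all other autosomes, also had the larger ratio for distal regions in these 3 classes. In gene-rich bins their distal and start-site ratios were 1.79 and 1.45, and 1.72 and 1.62. Chromosomes 17 (1.33 and 1.39) and 19 (1.42 and 1.47) had the reverse order in gene-rich bins. In gene-poor bins, however, their distal ratios were the larger (1.42 and 1.05, and 1.26 and 1.04). In intermediate bins the ratios were 1.33 and 1.14 on chromosome 17, and 1.06 for both on chromosome 19. Chromosome 11, whose overall density is nearly the same, had smaller ratios in each class when set against all other autosomes: 1.66 (1.59 to 1.72) in gene-rich, 1.42 (1.33 to 1.51) in intermediate, 1.43 (1.28 to 1.59) in gene-poor and 0.926 (0.611 to 1.35) in gene-free bins.

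The excess was also seen at each distance from coding starts. Per Mb of sequence in each distance class, chromosome 15 had 226 regions within 1 kb of a start against 135 on the other autosomes (ratio 1.68), and 75.2 against 28.2 at 1 to 10 kb (2.67). It had 37.5 against 14.9 at 10 to 50 kb (2.52), 21.7 against 9.83 at 50 to 100 kb (2.21) and a ratio of 2.51 beyond 100 kb. On chromosome 15, 447 regions lay beyond 100 kb (11.6%), against 8.63% on the other autosomes. By midpoint, 43.6% of the chromosome 15 regions fell in introns outside start sites, 27.1% between genes and 7.85% in exons, against 38.9%, 24.5% and 6.94% on the other autosomes. Neighbouring regions were closer, with a median gap between midpoints of 7.53 kb, against 12.6 kb elsewhere.

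Bins with more CpG dinucleotides held more regions on chromosome 15 and on the other autosomes alike, so bins were also grouped by CpG count into 4 classes of equal size on the other autosomes. From fewest to most CpG, the chromosome 15 ratio was 1.57 (1.31 to 1.87), 2.65 (2.43 to 2.89), 1.69 (1.56 to 1.82) and 2.06 (1.98 to 2.15). The regions themselves were alike in composition, with a median GC content of 55.3% on chromosome 15 and 54.7% on the other autosomes for start-site regions, and of 49.0% and 48.9% for distal regions. A repeat share above 50% was found in 14.0% of the chromosome 15 regions and 13.6% of those elsewhere.

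The excess was not the same everywhere along the chromosome. Segments of 10 Mb were set against the mean level of other-autosome bins of the same gene class. From the centromere on, the ratios were 2.14, 1.22, 2.48, 2.18, 1.11, 2.62, 3.44, 2.64, 2.70, 2.80 and 2.19. The lowest were the segments from 40 to 50 Mb and from 10 to 20 Mb, and the highest was the segment from 60 to 70 Mb, which holds Myc and Pvt1. All 10 bins of that segment were above the mean of their class. Its Pvt1 bin held 60 of the segment's 285 regions, where the mean level of its class was 2.44. Its bin from 64 to 65 Mb held 59, where that level was 8.12. The ratio of 3.44 thus rests in part on the Pvt1 bin, and it was not recomputed without that bin. Of the 101 bins, 85 were above the mean of their class (84.2%), where 37.0% of other-autosome bins are, and 53 were at or above 2 times that mean, where 11.6% of other-autosome bins are. At the other end, 4 bins were at or below 0.5 times the mean (3.96%), against 808 of 2310 bins elsewhere.

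**Figure D4:**
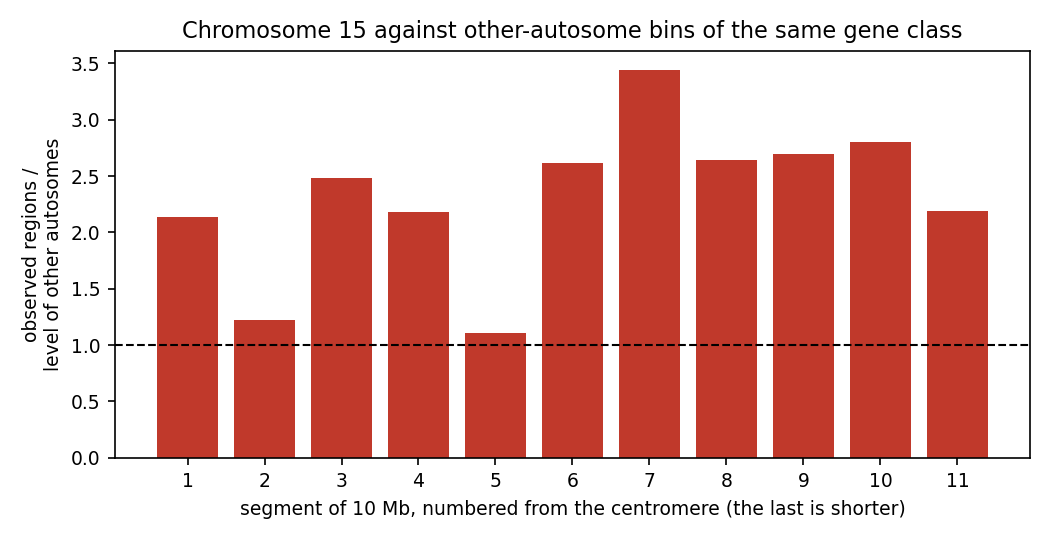
Bars give, for each 10 Mb segment of chromosome 15 from the centromere, the observed regions divided by the level that other-autosome bins of the same gene class would give; the dashed line marks equality. The 11 bars lie above 1, from 1.11 in segment 5 to 3.44 in segment 7.

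The 3 long stretches with at most 2 coding genes in each bin differed among themselves. Between 13 and 25 Mb, where Cdh9, Cdh10, Cdh12 and Cdh18 lie, 12 bins held 57 regions, none at a start site, or 4.75 per Mb. Between 45 and 51 Mb, which overlaps the very long neuronal gene Csmd3, 6 bins held 31 regions, or 5.17 per Mb. Between 67 and 73 Mb, 6 bins held 91 regions, or 15.2 per Mb. The 51 stretches of the same kind on other autosomes had a median of 3 regions per Mb and a highest value of 14.2. The 3 stretches were thus 1.58, 1.72 and 5.06 times that median, and 11, 10 and 0 of the 51 stretches were denser. The 2 long gene-rich stretches were nearly equal, at 107 regions per Mb from 74 to 83 Mb and 106 per Mb from 98 to 104 Mb. Among 55 gene-rich stretches elsewhere the median was 51.3 per Mb, and 2 and 3 of them were denser. Stretches were defined after the counts were seen.

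Around Myc and Pvt1 the regions were concentrated in Pvt1. Myc encodes a transcription factor that drives growth and proliferation. Myc (ENSMUSG00000022346.15, mm10, plus strand, 61985391 to 61990374) carried 3 regions, with scores of 5.43, 4.67 and 6.46 in the authors' deposited table. The first lay at 61985573 to 61986673, in the 5′ part of the gene, the next, at 61987157 to 61987524, overlapped the 1 kb around an annotated start, and the last lay at 61989254 to 61989559. Pvt1 (plus strand, 62037986 to 62378096), which starts downstream of Myc, held 43 regions, or 126 per Mb of its own length, all distal to coding starts. Like 99.5% of all chromosome 15 regions, these 43 were called at 70 µM. Their median score in the authors' deposited table was 6.17 and the highest 24.18, in an intron 168 kb downstream of the Myc start. Pvt1 has 10 annotated start positions, and 1 region, at 62038430 to 62038604 (4.81 in the authors' deposited table), lay within 1 kb of them. Between the end of Myc and the start of Pvt1 there was no region.

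The locus was a local peak in sequence with few coding genes, and the chromosome's density was about the same without it. The Mb downstream of the Myc start held 63 regions and the Mb upstream 25. The 4 bins from the one before Myc to the one after Pvt1 held 10, 28, 60 and 20 regions. Together they had 118 regions, 3.06% of those on the chromosome in 3.96% of its bins, and 1.18 times the median chromosome 15 bin (0.977 to 1.41), a value that was 2.00 for the 4 bins of 500 kb around Myc and 1.77 for the 4 bins of 2 Mb. The 60-region bin had the most regions of 276 gene-free autosomal bins, and the next, on chromosome 8, had 29. Without these 4 bins the chromosome 15 density was 2.16 times that of the other autosomes (2.09 to 2.23).

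**Figure D5:**
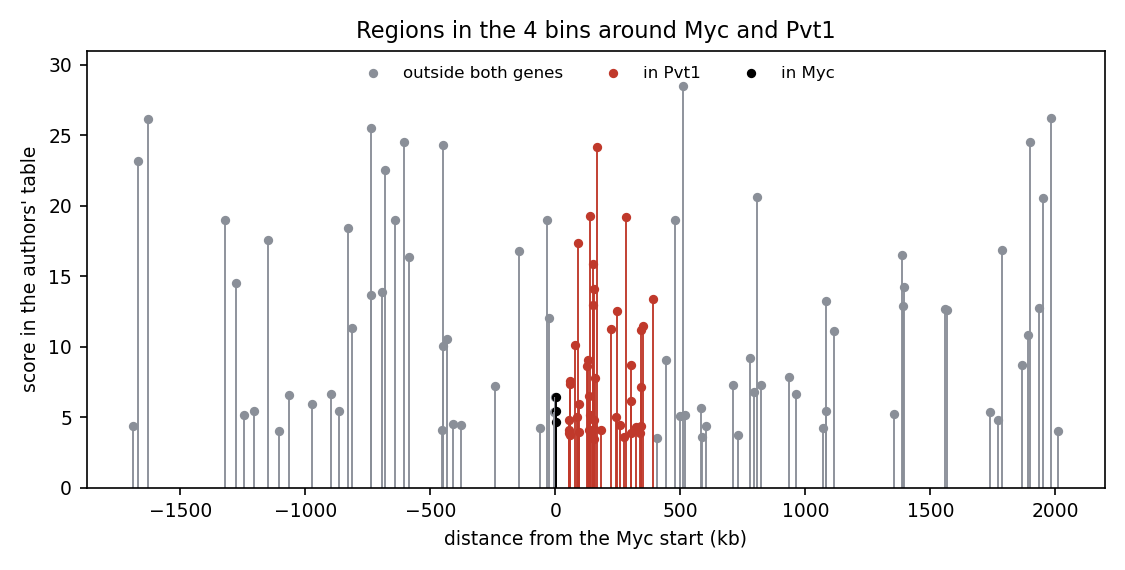
Each line and point is a region in the 4 bins around Myc and Pvt1, placed by its distance from the Myc start, with its score in the authors' deposited table as height; black is in Myc, red in Pvt1, grey outside both. The 43 Pvt1 regions crowd together downstream of Myc, and the strongest region, at 28.51, lies 511 kb downstream of the Myc start.

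Coding genes of the wider neighbourhood, from a list written with earlier results of these data known, had a start-site region in 13 of 16 cases (81.2%, against 56.1% on the chromosome). Trmt12, a gene for tRNA modification, came first (24.81 in the authors' deposited table, a 5 µM region), followed by the actin and membrane scaffold gene Mtss1 (15.69), Efr3a (5.85) and the pseudokinase gene Trib1 (5.61). The adenylyl cyclase gene Adcy8 and Fam84b were among those with none at a start. The scored Mtss1 region lay at a start inside the gene body, away from its 5′ end. The bins of Sqle, Nsmce2 and Trib1 (67 regions) and of Asap1 and Adcy8 (59 regions) were, with that of Pvt1, among the 4 gene-free or gene-poor bins with most regions. The first of these 4, with 92 regions of which 84 were distal, held the starts of Celsr1, Gramd4, Cerk and Tbc1d22a.

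Clusters of related genes held from 0 to 6 genes with a start-site region, where 56.1% of the chromosome's coding genes have one. In the Hoxc cluster of homeobox genes, which set position along the body axis, 4 of 9 genes had a start-site region. These were Hoxc12, Hoxc5, Hoxc4 and Hoxc6, with scores of 21.26, 17.41, 12.54 and 4.03 in the authors' deposited table, while Hoxc8, Hoxc9, Hoxc10, Hoxc11 and Hoxc13 had none. Of 25 genes of the keratin cluster, which encodes the filaments of epithelial cells, 5 had one, led in that table by Krt81 (19.13), Krt8 (19.01), Krt5 (9.76) and Krt83 (6.71), and Krt1 and Krt18 were among those without. In the Ly6 cluster of lipid-anchored surface proteins, 6 of 16 genes had one, among them Ly6c1 (21.99 in the authors' deposited table), Lynx1 (13.25), Psca (10.54) and Ly6e (5.87), but not Gpihbp1 or Ly6c2. The scored Hoxc5, Hoxc4 and Hoxc6 regions lay at starts inside the gene bodies, away from the 5′ ends. Keratin, Ly6 and Apol genes have close copies, so reads could be placed on a wrong copy and these counts are uncertain. None of the 5 cadherin genes Cdh6, Cdh9, Cdh10, Cdh12 and Cdh18, which encode adhesion proteins, had a start-site region. Their bodies held 2, 1, 0, 9 and 6 regions, at most 1.38 per 100 kb.

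Short hand-written lists of other chromosome 15 genes were counted in the same way, and they leave out many genes of each kind. Over all coding genes of the chromosome the share with a start-site region was 56.1%. Of the 21 transcription factor genes on one list 17 had a start-site region (81.0%), while Hsf1, Foxh1, Scx, Scrt1, Dbx2, Pou6f1 and Zfat, also transcription factor genes but not on it and named after their values were seen, had none. By score in the authors' deposited table these were led by Tef, a circadian output factor (22.69, a 5 µM region), the mesenchymal factor gene Osr2 (20.50), Sox10 of glia and neural crest (15.99) and the immediate early gene Nr4a1 (11.12, with 6 start-site regions). Atf4, the factor of the integrated stress response, and Grhl2 of epithelia were among the 4 listed genes without. Of 15 chromatin and cohesin genes 12 had one. The bromodomain gene Brd1 (18.79 in the authors' deposited table), the deacetylase gene Hdac7 (14.84), the acetyltransferase gene Ep300 (13.16) and the H3K4 methyltransferase gene Kmt2d (8.77) led, and Cbx7 and the cohesin gene Rad21 were among those without. The scored Tef, Sox10, Nr4a1, Brd1, Hdac7 and Ep300 regions lay at starts inside the gene bodies, away from the 5′ ends. Of 11 translation genes 9 had one, with Rpl3 (10.86 in the authors' deposited table), Eif3d (9.07, a 5 µM region), Pabpc1 (7.55) and Rpl30 (6.90) first, and not Eif4b or Larp4. Of 11 cytoskeleton and adhesion genes 10 had one, led by Ptk2, which encodes focal adhesion kinase (25.72 in the authors' deposited table), the exchange factor gene Trio (12.55), the plectin gene Plec (11.60) and the non-muscle myosin gene Myh9 (11.37). Basp1 had none.

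Of 19 neuronal genes 6 had a start-site region (31.6%, against 56.1% on the chromosome). By score in the authors' deposited table they were led by the adhesion receptor gene Adgrb1 (19.01), the sodium channel gene Scn8a (16.90), Lynx1, which modulates nicotinic receptors (13.25), and the postsynaptic scaffold gene Shank3 (9.78). Arc, an activity-induced gene, and Adcy8 were among those without, and Arc had no region in its body either. The scored Adgrb1, Scn8a and Shank3 regions lay at starts inside the gene bodies, away from the 5′ ends. Among markers on any chromosome, 2 of 6 for mature neurons had a start-site region (Rbfox3 and Syn1, but not Map2, Snap25, Tubb3 or Camk2a), as did 2 of 5 for astrocytes and 5 of 6 for fibroblasts and mesenchyme, where 39.5% of all protein-coding genes have one. A gene without a region can carry H3K9ac at both levels alike, because the list leaves out shared regions, so these counts do not check the cell type.

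The strongest start-site regions of the chromosome lay mostly outside these groups. By score in the authors' deposited table, 6030408B16Rik (27.79), Pced1b (26.11), Pkhd1l1 (25.87), Ptk2 (25.72) and Trmt12 (24.81) came first. The phosphomannomutase gene Pmm1 (24.40), the water channel gene Aqp5 (24.19), the small GTPase gene Rhebl1 (23.90), Zcrb1 of the minor spliceosome (23.64) and Dcaf13 (23.02) followed. The scored Pced1b, Ptk2, Pmm1, Zcrb1 and Dcaf13 regions lay at starts inside the gene bodies, away from the 5′ ends. In the 10 densest bins the leading genes also included Oplah (22.54 in the authors' deposited table), the splicing factor gene Puf60 (21.81), Apol9b (21.84), Apol7b (12.81), Aqp2 (14.60), Gtpbp1 (20.21), 1700088E04Rik (19.01), Ift27 (16.81), Gga1 (16.27), Calcoco1 (20.06), Olfr282 (21.32), Rrp7a (21.20) and Mpped1 (20.99). Of these, the scored Oplah, Puf60, Gtpbp1, 1700088E04Rik, Ift27, Gga1, Calcoco1, Rrp7a and Mpped1 regions also lay at such inner starts. The densest bin, from 76 to 77 Mb, held 173 regions over 53 coding genes. Of the 173 regions, 73 were at start sites. The bin from 77 to 78 Mb held 136 regions over 20 genes, of which 110 were distal.

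Gene bodies with most regions were long or lay in dense stretches. Myh9 held 34 regions in 81.6 kb, Tbc1d22a 31 in 284 kb, Gramd4 28 in 79.9 kb, the splicing regulator gene Rbfox2 27 in 228 kb and Trio 24 in 295 kb, a count that Nsmce2 and Trappc9 shared. The strongest regions more than 10 kb from any annotated start had scores of 34.42, 33.02, 29.56, 29.51 and 28.78 in the authors' deposited table. They lay in introns of Tbc1d22a, the potassium channel gene Kcnk9 and Sema5a, which encodes an axon guidance protein, in an exon of Sult4a1, and in intergenic sequence 116 kb from the Trib1 start.

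The median score in the authors' deposited table was 7.04 on chromosome 15 and 6.62 on the other autosomes. For distal regions the medians were 8.43 and 8.80, and for start-site regions 5.28 and 4.99. When the whole list was divided into 4 equal groups from low to high score, the density ratio was 2.09, 2.00, 2.42 and 2.05. The commonest exact score, 19.01, was held by 4.25% of the regions on chromosome 15 and 5.66% of those elsewhere, so genes with that score are tied.

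Nearly all chromosome 15 regions were called at 70 µM, 3840 of 3858 (99.5%), against 99.2% on the other autosomes. The 70 µM regions had a density of 38.2 per Mb on chromosome 15 and 17.8 per Mb elsewhere, a ratio of 2.14 (2.07 to 2.22). The 18 regions at 5 µM had a density of 0.179 per Mb on chromosome 15, against 0.146 per Mb elsewhere, a ratio of 1.22 (0.715 to 1.96). Of the 18, 10 lay at start sites (55.6%), against 816 of 3840 at 70 µM (21.2%). Coding genes at these start sites, with the score of the 5 µM region, included Trmt12 (24.81 in the authors' deposited table), Tef (22.69), Tarbp2, a partner of Dicer (19.68), Lrrc24 and C030006K11Rik (10.08, the same region), Eif3d (9.07), Trio (5.92), Ankrd54 (5.64), Micall1 (4.88) and Sgsm3 (4.54). The Tef, Tarbp2 and Micall1 regions called at 5 µM lay at starts inside the gene bodies, away from the 5′ ends. The list gives no signal of the input libraries, so the number of copies of chromosome 15 in these cells is not known here.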

How the data were processed

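H3K9ac ChIP and input DNA of HT22 cells were sequenced. The submitters' processing notes name Bowtie 1.0.0, CASAVA 1.8, MACS2 (without a version) and the build mm10, and per the series' design text, peaks were called against input and differences with bdgdiff. The deposited list gives each region a score, an unnamed column that is probably the log10 likelihood ratio written by bdgdiff; per the file headers it holds regions unique to either condition. How libraries were scaled, and their depth, are not given in the sources used here.

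Positions were set against GENCODE M21 and RefSeq GRCm38.p6 (the same build), with Python 3.11.15, pandas 2.3.3 and scipy 1.17.1. Regions were put in 1 Mb bins by midpoint, and bins with under 50% assembled sequence were left out. Ratios and shares have exact (conditional binomial, Clopper-Pearson) 95% intervals. Functions were tested on simulated data. Genes were named by rule: all members of lists of up to 9 genes (of longer lists 4 with and 2 without a start-site region), the 10 strongest start-site genes, 2 genes in each of the 10 densest bins, the 5 with most regions, those nearest the 5 strongest regions over 10 kb from any start, and up to 10 genes at 5 µM start-site regions. Pvt1, Krt74, Krt85 and Ly6m were dropped from the lists, as the annotation has no coding gene of that name on chromosome 15. Stretches, and the Myc and Pvt1 sequences, were chosen after the counts were seen. The members and lists were chosen with earlier results of these data known. The sequence of the strongest start-site region is not reported here. Alternatives are given in the closing section.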

Additional observations from a re-analysis of the deposited data

How the results depend on the processing

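No alternative turned a ratio below 1, and 39 of the 59 values recomputed stayed within the counting interval of the reported one. Keeping only regions at or above the median score gave density ratios of 2.23 for all regions, 1.95 for start-site regions per gene and 2.25 without the densest bins. With that filter 80.2% of chromosome 15 bins were above the other autosomes' median, and 25.0% of its coding genes had a start-site region. Leaving chromosomes 3, 5 and 11 out of the other autosomes gave 2.41 for all regions, 2.71 for distal regions, 1.88 for start-site regions per gene, 2.94 in gene-free and gene-poor bins (2.68 with all autosomes), 2.76 in gene-rich bins and 2.42 without the densest bins. These chromosomes hold 22.4, 22.1 and 38.6 regions per Mb, above the 17.9 of the other autosomes together. They also lie above in distal regions per Mb and start-site regions per gene, so the first 3 ratios could only rise. A start-site window of 500 bp gave a distal ratio of 2.30 and a marked share of 47.0%, and one of 2500 bp gave a start-site ratio of 1.92 and a marked share of 66.4%. Bins of 500 kb gave 2.29 in gene-free and gene-poor bins, 2.57 in gene-rich bins and 2.00 for the Myc and Pvt1 bins over the median bin, while bins of 2 Mb gave 2.44 and 1.77 for the first and the last of these. A stricter score filter and a narrower window leave fewer regions at starts, and other causes were not tested. The shares of 25.0%, 47.0% and 66.4% were not recomputed for other autosomes. They are therefore not to be set against the 40.0% found there with the main settings. Leaving out the 4 bins around Myc and Pvt1, chosen after seeing the data, gave 2.16 for all, 2.39 for distal and 2.57 for gene-free and gene-poor bins. No paired analysis was possible because the list is 1 comparison with no values per library. Depth and the number of chromosome copies are unknown here, regions shared by both choline levels are not in the list, and each choline level had at most 1 ChIP library.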

Other observations

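Long noncoding RNA genes also carried regions at their starts. On chromosome 15, 50 of 368 such genes had a region within 1 kb of a start and away from coding starts (13.6%), against 661 of 9058 on the other autosomes (7.30%). Of the 100 autosomal 1 Mb bins with most regions, 18 lay on chromosome 15, which has 101 of the 2411 bins, and 20 on chromosome 11.

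At the low end, 1 bin of chromosome 15, from 45 to 46 Mb, had no region. The longest gap between midpoints of neighbouring regions was 1195 kb on chromosome 15, against 5884 kb on the other autosomes.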
